A study of Homo sapiens with 11 samples.

Results

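The Golgi enzymes that build O-linked glycans and cap glycans with galactose, fucose and sialic acid were followed in 2 lung adenocarcinoma cell lines. The genes were taken by symbol: every gene whose current RefSeq symbol starts with GALNT, B3GNT, B3GALT, B4GALT, FUT, ST3GAL or ST6GAL, the last including the ST6GALNAC genes. By that rule 66 of the 20249 genes named on the array were members, 63 of them protein coding and 3 long non-coding RNAs named after a neighbouring enzyme gene (B3GALT5-AS1, FUT8-AS1 and GALNT9-AS1). They comprised 21 GALNT, 10 FUT, 8 B3GNT, 7 B4GALT, 6 B3GALT, 6 ST3GAL, 6 ST6GALNAC and 2 ST6GAL genes. Where a gene had several probes, the brightest over the 4 groups was used, and the members had 84 probes in all.

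The study asked what the re-expression of TRIM58, a gene encoding a RING-finger E3 ubiquitin ligase, does to gene expression in the human cell lines A549 and HCC827, which were each derived from a lung adenocarcinoma. Retroviruses made from the empty pMXs-Neo vector (mock) or from the vector with FLAG-tagged wild-type TRIM58 (TRIM58-WT) were introduced and the cells selected with G418, so mock cells share the vector and the drug. A549 was represented by mock cells 1, 2 and 3 and TRIM58-WT cells 1, 2 and 3, and HCC827 by mock cells 1 and 2 and TRIM58-WT cells 1 and 2. Clones were isolated from the A549 stable cells, and a clone carries differences of its own beside the transgene, while the HCC827 cells are described as crude transfectants. The labels do not say whether cells of 1 number and another come from separate infections, so p-values measure only the spread between these samples, which may be partly technical. A549 mock 1 was hybridised on 2 arrays, called 1-1 and 1-2, which were averaged to 1 replicate, so 11 arrays stood for 10 replicates.

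Mucin-type O-glycosylation starts in the Golgi, where a polypeptide GalNAc transferase (GALNT) links N-acetylgalactosamine to a serine or threonine. Core enzymes outside the families followed here, among them C1GALT1 and the GCNT branching enzymes, act next. Enzymes of the B4GALT and B3GNT families can then extend the chain with galactose and N-acetylglucosamine. Fucosyltransferases (FUT) and sialyltransferases (ST3GAL, ST6GAL, ST6GALNAC) can cap it. Some enzymes of the set, such as B3GALT4 and B3GALT6, work on glycolipids or the glycosaminoglycan linker instead. Many genes of the set are expressed in a tissue-restricted way. Truncated or sialylated glycans, such as the Tn, sialyl-Tn and sialyl-Lewis antigens, are long known as tumour-associated carbohydrate antigens of adenocarcinomas.

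All levels below are log2 of the background-subtracted signal minus the 75th percentile of the same array, so 0 is that percentile, and each test compared the levels of 1 probe between arrays. The brightness of different probes served only to choose the probe of a gene and some of the genes to name, and in a summed level of epithelial markers. Of the 66 members, 53 were well above background on at least 1 array, by the scanner software's own mark, and 31 on all 11. On every array of a group, 37 members were above background in A549 mock, 36 in A549 TRIM58-WT, 41 in HCC827 mock and 42 in HCC827 TRIM58-WT. The 13 members that were not well above background on any array were B3GALT1, B3GALT5, B3GNT8, B4GALT6, FUT2, FUT5, FUT7, FUT9, GALNT8, GALNT13, GALNT15, GALNTL5 and ST3GAL6. A further 5 members (B3GALT2, B3GNT6, GALNT4, GALNT17 and GALNTL6) were above background on some arrays, but not on every array of any group, and were not tested. A member was tested where either group compared had its probe above background throughout, and 48 of the 66 were tested in at least 1 comparison. Because a probe can enter the test through the group where it is bright, counts over tested members do not describe all members.

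**Figure D1:**
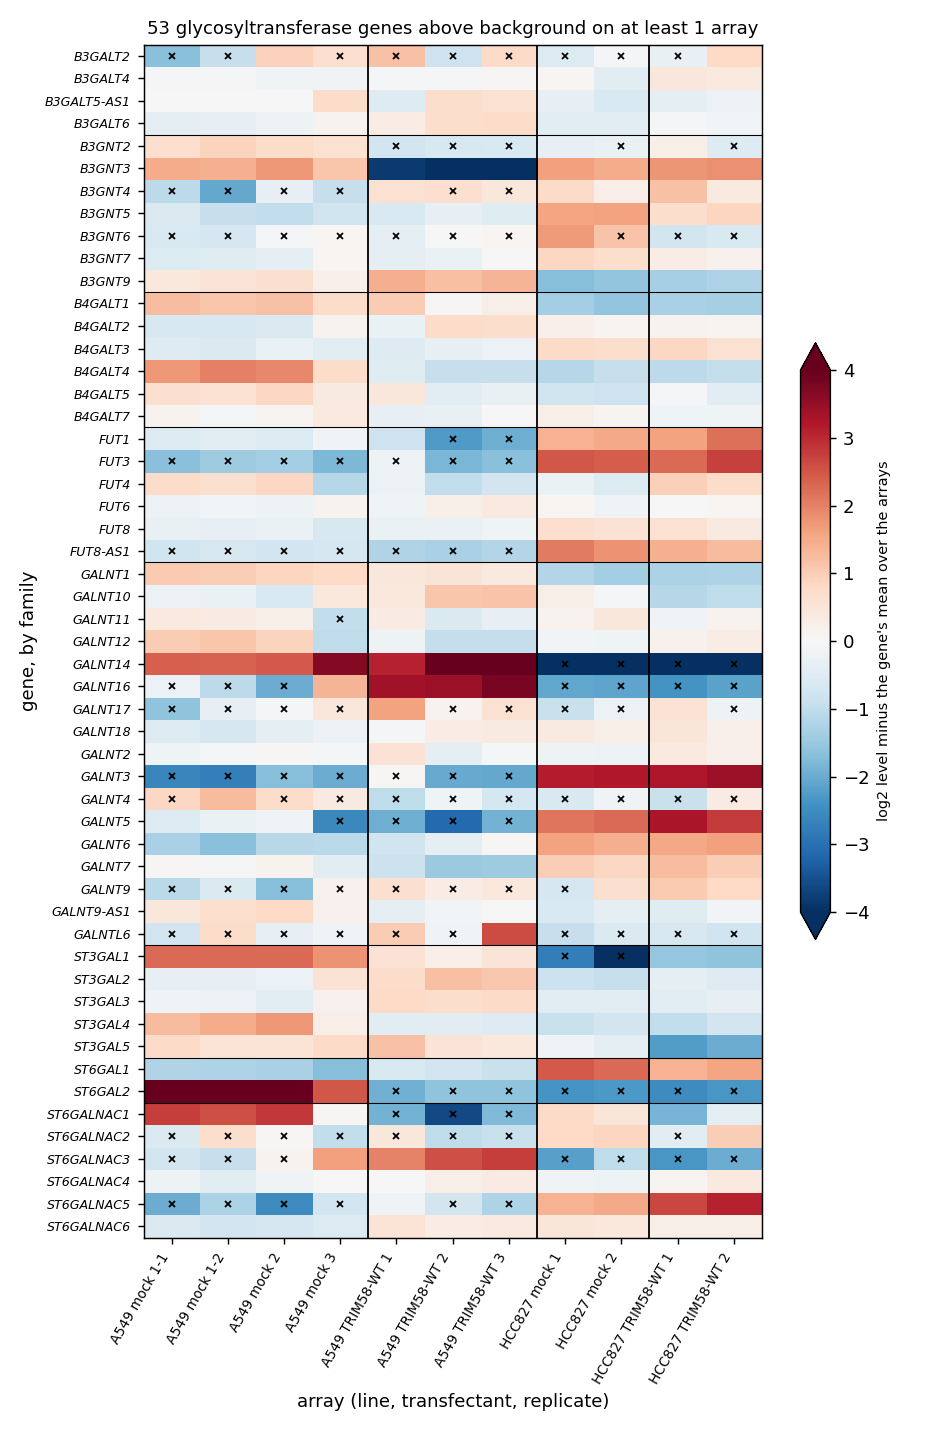
Log2 level of the 53 members above background on at least 1 array (rows, by family) on each of the 11 arrays (columns), as the difference from the gene's own mean over the arrays, with colours cut at 4 in either direction and a cross where the probe was not well above background. B3GNT3 is dark blue on the 3 A549 TRIM58-WT arrays alone, and GALNT14 is dark blue on all 4 HCC827 arrays.

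The libraries differed in several ways that touch what follows. TRIM58 itself was not well above background on any of the arrays labelled TRIM58-WT, and its 1 probe was above background only on A549 mock 3, at -0.71. Where that probe lies in the transcript is not given in the sources used here, so whether it can report the introduced coding sequence is not known, and the labels were used as given. A549 mock 3 also stood apart from the other mocks: of the 33 members above background on all A549 arrays, it lay beyond mock 1 and mock 2 on the TRIM58-WT side in 25. The median absolute difference over these members was 0.36 to 0.44 between mock 3 and the other mock arrays. It was 0.16 and 0.12 between mock 2 and the arrays of mock 1 (1-1 and 1-2), against 0.09 between those arrays. TRIM58-WT 2 and 3 differed by 0.11, and TRIM58-WT 1 differed from them by 0.40 and 0.43. Mock 1 and 2, like TRIM58-WT 2 and 3, were thus much closer to each other than to the other replicate of their group. In linear units the percentile that each array was scaled to was 56.6 to 62.5 on A549 mock 3, TRIM58-WT 2 and TRIM58-WT 3, and 90.5 to 125 on the other arrays. Of 5 epithelial markers, 5 were above background on every mock array of A549 and 3 on every TRIM58-WT array, and their summed linear level was 1018 to 1314 in the former and 551 to 661 in the latter. The largest fitted change among them was that of KRT19, -9.50 on the log2 scale (adjusted p = 0.000151), from 6.11 to 7.52 on the mock arrays to levels not above background on any TRIM58-WT array. EPCAM fell by 4.88 (0.0117), with 1 TRIM58-WT array above background, KRT8 fell by 1.37 (0.0261), and CDH1 and KRT18 changed by -2.33 (0.0716) and -0.65 (0.133). KRT18 had the brightest of the 5 probes on every A549 array and so weighs most in the sum there. All 5 were above background on every HCC827 array, with sums of 871 to 872 in mock and 1027 to 1170 in TRIM58-WT. None of 3 endothelial markers was above background on any array, and none of 5 fibroblast markers throughout a group. The fibroblast marker LUM was above it on the arrays of A549 mock 1 and mock 2 (-0.07 to 0.07). It was not on any other array, mock 3 included (-4.18). Of 4 leukocyte markers, 0 to 2 were above background throughout a group, and of 4 lung lineage markers none in A549 and 2 in HCC827. Of the leukocyte markers, CD14 fell by 3.06 in A549 (adjusted p = 0.00154). The part of these differences in the results was not tested, and in bulk RNA fewer cells expressing a gene and less RNA per cell cannot be told apart.

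In A549, 10 of the 40 members tested differed between TRIM58-WT and mock, 8 lower and 2 higher, at an adjusted p under 0.05 (limma, Benjamini-Hochberg over all probes tested) and a change of at least 2-fold. That is 25% of the members tested, beside 7.94% of all 11182 genes tested, of which 4.05% were lower and 3.89% higher. The enzymes that fell were B3GNT3, B3GNT2 and B4GALT4 among the chain-extending enzymes, GALNT7 among the initiating ones, and ST6GAL2, ST6GALNAC1, ST3GAL1 and ST3GAL4 among the sialyltransferases. The enzymes that rose were GALNT16 and ST6GALNAC6. Of these members, B3GNT2, ST6GAL2 and ST6GALNAC1 were above background on no TRIM58-WT array and entered the test through mock alone. GALNT16, above background in mock 3 alone among the mock arrays, entered it through TRIM58-WT alone. The median change over the 40 members was 0.07 on the log2 scale, against 0.03 over all genes tested. The groups did not overlap for 25 of the 40 members, beside 33.9% of all genes tested. The count depended on single replicates: without mock 3, 17 members passed, the 10 among them, and 3, 4, 8, 4 and 4 passed without mock 1, mock 2, TRIM58-WT 1, TRIM58-WT 2 and TRIM58-WT 3 in turn.

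B3GNT3, a beta-1,3-N-acetylglucosaminyltransferase that extends core 1 O-glycans, showed the largest change of the members in A549. Its level was 4.01 and 3.95 on the arrays of mock 1, 4.26 in mock 2 and 3.65 in mock 3. TRIM58-WT 1, 2 and 3 stood at -1.28, -1.74 and -1.82. Every TRIM58-WT array lay far below every mock array, and yet the probe stayed above background on all of them. The log2 change was -5.58 (SE 0.24, n = 3 replicates per group), 47.8-fold lower, with an adjusted p of 0.000177 by limma. The change was -5.42 within slide 1 and -5.58 within slide 2. Slide 1 held A549 mock 1-1, mock 2 and TRIM58-WT 1, and slide 2 the other A549 arrays. Every change within slide 1 in A549 thus rests on 1 TRIM58-WT array. B3GNT3 is encoded on chromosome 19. It kept its call when any of the 6 replicates was left out, with log2 changes of -5.75 to -5.43. With background correction by normexp, which adds an offset before the log is taken, the change was smaller, -3.43 (adjusted p = 0.000549).

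B3GNT2, the main enzyme of poly-N-acetyllactosamine synthesis, was dim in this cell line. Its level was -2.02, -1.80, -1.96 and -2.06 on the 4 mock arrays and -3.44, -3.33 and -3.30 in TRIM58-WT, where it was not well above background. The fitted log2 change was -1.38 (SE 0.15, adjusted p = 0.00492), and measured against the lowest signal above background it was at least 1.57-fold lower in TRIM58-WT. Within slides 1 and 2 it was -1.45 and -1.39. It kept its call when any replicate was left out, with changes of -1.42 to -1.34. The other 3 tested B3GNT genes did not pass. B3GNT9 changed by 0.90 (adjusted p = 0.0331), below the 2-fold limit, while B3GNT5, which starts the lacto-series glycolipids, changed by 0.38 and B3GNT7 by 0.03, with adjusted p of 0.214 and 0.942. With background correction by normexp the change of B3GNT2 was -0.11 (adjusted p = 0.687), so the call depends on the background correction.

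B4GALT4, a beta-1,4-galactosyltransferase known to act on sulfated N-acetylglucosamine, stood at 2.14, 2.42, 2.32 and 1.12 on the mock arrays (1-1, 1-2, 2 and 3). In TRIM58-WT it stood at -0.09, -0.53 and -0.54. Every TRIM58-WT array was below every mock array, of which mock 3 was the lowest. The log2 change was -2.30 (SE 0.36), 4.91-fold lower (adjusted p = 0.0158). It was -2.32 within slide 1, -2.31 within slide 2 and -2.69 without mock 3. Without mock 1, mock 2, TRIM58-WT 2 or TRIM58-WT 3 the change was -2.22 to -2.09 and the adjusted p rose to 0.0674 to 0.0804. The other 5 tested B4GALT genes did not pass. B4GALT5, a lactosylceramide synthase, changed by -0.70 and B4GALT1, the galactosyltransferase of lactose synthase, by -0.59, with adjusted p of 0.180 and 0.281, and B4GALT2 by 0.76 (0.243). None of the 3 tested members of the B3GALT group passed, and B3GALT6, an enzyme of the glycosaminoglycan linker, changed by 0.72 (adjusted p = 0.0916) and B3GALT4, which makes the ganglioside GM1, by 0.09 (0.746).

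Of the initiating enzymes, 11 of the GALNT group were tested in A549, of which 1 fell and 1 rose. GALNT7, which prefers peptides that already carry N-acetylgalactosamine, stood at 3.04, 2.94, 3.12 and 2.56 on the mock arrays and at 2.12, 1.51 and 1.57 in TRIM58-WT. No arrays overlapped between groups. The log2 change was -1.16 (SE 0.25, adjusted p = 0.0381), and -0.97 within slide 1 and -1.21 within slide 2. Without mock 1, mock 2, TRIM58-WT 2 or TRIM58-WT 3 the change was -1.11 to -1.04, with adjusted p of 0.147 to 0.167.

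GALNT16, another member of the initiating family, rose. On the mock arrays it stood at -3.65, -4.47, -5.39 and -2.05, and only the last, mock 3, was well above background. In TRIM58-WT it stood at -0.05, 0.05 and 0.37, above background on all 3 arrays and above every mock array. The fitted log2 change was 3.96 (SE 0.78, adjusted p = 0.0315), with levels below background on 3 of the 4 mock arrays. It was 4.47 within slide 1 and 3.47 within slide 2. Without mock 3 the change was 4.85 (adjusted p = 0.00274). Without any 1 of the other 5 replicates it was 3.18 to 4.04, with adjusted p of 0.0557 to 0.137. GALNT14 was bright in A549 and changed by 1.10 (adjusted p = 0.234), and its groups overlapped: the mock arrays reached 4.19, in mock 3, and TRIM58-WT 1 stood at 3.58. GALNT10 changed by 1.04 (adjusted p = 0.107), and its groups did not overlap. GALNT1, a broadly expressed initiator, changed by -0.43 with its brightest probe (adjusted p = 0.136) and by -0.84 with its other probe (adjusted p = 0.0270), neither reaching 2-fold.

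**Figure D2:**
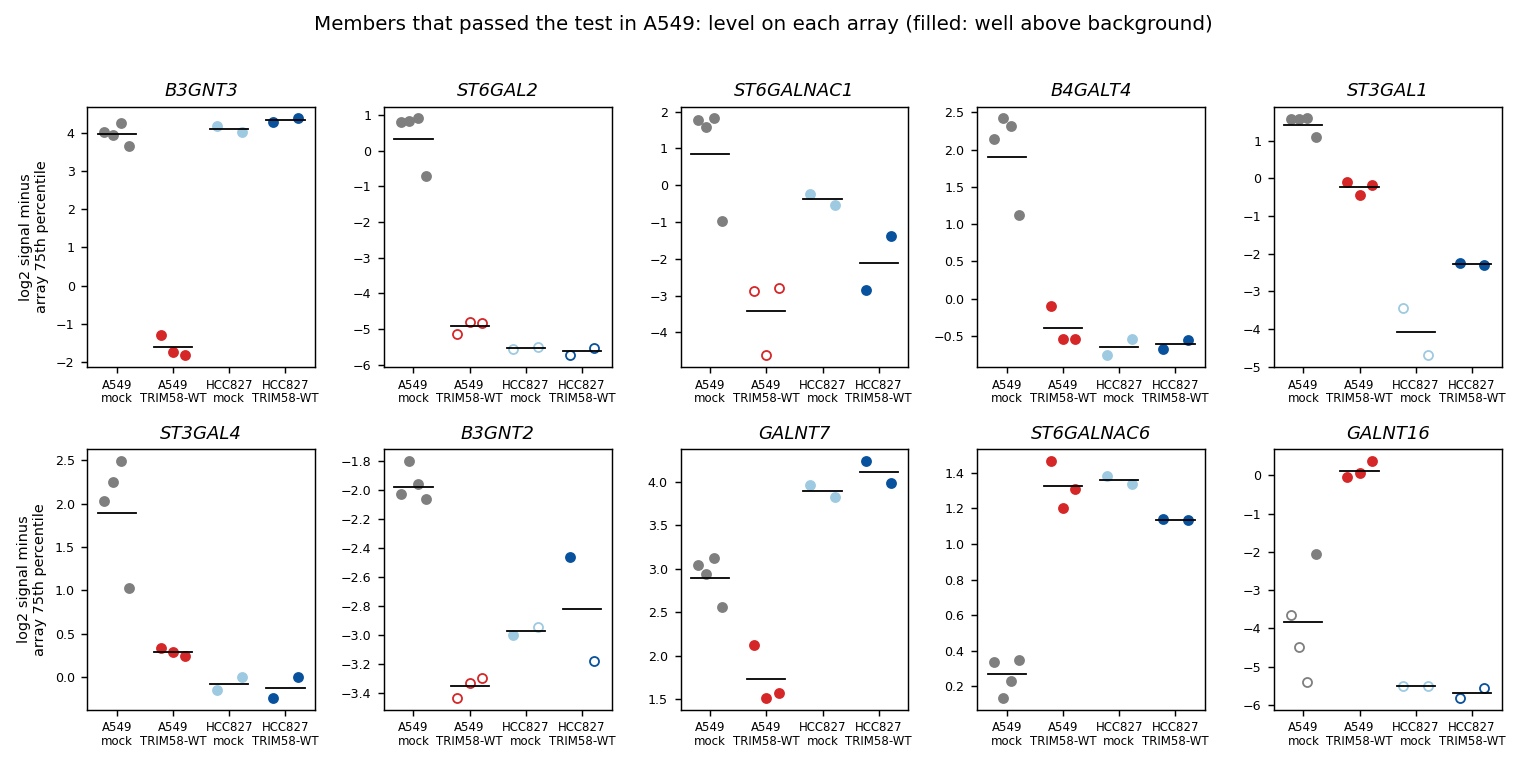
Log2 level (signal minus the 75th percentile of the array) of the 10 members that passed the test in A549, 1 panel per gene with its own vertical axis; each point is an array, filled where well above background, and the bar is the mean over replicates. B3GNT3 falls from 3.65 or more to -1.28 or less in A549 and stays above 4 in every HCC827 array.

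Among the sialyltransferases, ST6GAL2, an alpha-2,6-sialyltransferase of N-acetyllactosamine with a restricted tissue distribution, was lost from detection in A549 TRIM58-WT. It stood at 0.81, 0.83, 0.90 and -0.73 on the mock arrays, all well above background, and at -5.13, -4.80 and -4.82 in TRIM58-WT, none above background. It was at least 7.78-fold lower, with a fitted log2 change of -5.25 (adjusted p = 0.00240), and of -5.99 within slide 1 and -4.86 within slide 2. It kept its call when any replicate was left out, with changes of -5.78 to -4.97. The dimmer second probe of ST6GAL2 was above background on only 2 arrays and was not tested. ST6GAL1, the broadly expressed enzyme of the same linkage, changed by 0.65 (adjusted p = 0.0883), and its groups did not overlap.

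ST6GALNAC1, the sialyl-Tn synthase, stood at 1.76, 1.57, 1.82 and -0.96 on the mock arrays and at -2.89, -4.62 and -2.78 in TRIM58-WT, where it was not above background. It was at least 11.1-fold lower, with a fitted log2 change of -4.27 (SE 0.86, adjusted p = 0.0334), and of -4.67 and -4.01 within slides 1 and 2. Mock 3 lay between the other mock arrays and TRIM58-WT, and without it the change was -5.17 (adjusted p = 0.00660). Without any 1 of the other 5 replicates it was -4.59 to -3.67, with adjusted p of 0.0507 to 0.143.

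ST3GAL1, which places alpha-2,3-sialic acid on core 1 O-glycans, stood at 1.58, 1.57, 1.59 and 1.10 on the mock arrays and at -0.10, -0.43 and -0.18 in TRIM58-WT, with no overlap. Its log2 change was -1.66 (SE 0.20), 3.15-fold lower (adjusted p = 0.00803). It was -1.69 and -1.64 within slides 1 and 2, and -1.58 without mock 1 (adjusted p = 0.0535). ST3GAL4, which sialylates type II chains of the sialyl-Lewis kind, stood at 2.03, 2.25, 2.49 and 1.03 on the mock arrays and at 0.34, 0.29 and 0.24 in TRIM58-WT. Mock and TRIM58-WT did not overlap, but the adjusted p of the change of -1.60 (SE 0.37) was 0.0499, at the threshold. The change was -1.92 within slide 1 and -1.38 within slide 2. Without mock 3 it was -2.03 (adjusted p = 0.00298), and without any 1 of the other 5 replicates -1.62 to -1.30, with adjusted p of 0.0762 to 0.198. ST3GAL3 changed by 0.92 (adjusted p = 0.0381), short of 2-fold, and ST3GAL2 by 1.00 (0.0858). ST3GAL5, the GM3 synthase, changed by 0.06 (adjusted p = 0.903).

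ST6GALNAC6, a sialyltransferase of the GalNAc-alpha-2,6 family that acts on glycolipids, stood at 0.34, 0.14, 0.23 and 0.35 on the mock arrays and at 1.46, 1.20 and 1.31 in TRIM58-WT. Every TRIM58-WT array was above every mock array, the log2 change was 1.05 (SE 0.15), and the adjusted p was 0.0130. With each array centred on its median instead, which moves the median change of all probes in A549 from 0.25 to -0.12, the change was 0.68 (adjusted p = 0.369). Without any 1 of the 5 replicates other than mock 3 it was 0.98 to 1.11, with adjusted p of 0.0185 to 0.0850. The 0.98, without TRIM58-WT 1, had the lowest of these p but is short of 2-fold. ST6GALNAC3 had a fitted change of 2.13 (adjusted p = 0.0854), with levels of -4.28 to -1.72 in mock and -1.38 to -0.60 in TRIM58-WT, and was above background in mock 3 alone among the mock arrays. ST6GALNAC4, which makes disialylated core 1, changed by 0.32 (adjusted p = 0.329).

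Normexp background correction also gave smaller changes for other members. ST6GAL2 (-1.65, adjusted p = 0.0288), ST3GAL1 (-1.04, 0.0180) and GALNT16 (1.28, 0.0185) kept their calls, while ST6GALNAC1 (-1.68, 0.0862) and ST6GALNAC6 (0.66, 0.0317, short of 2-fold) lost them, as did GALNT7 (-1.03, 0.0839) and ST3GAL4 (-1.24, 0.0846).

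None of the 4 fucosyltransferase genes tested in A549 passed. FUT1, the H blood-group enzyme, had the lowest change, -1.28 (adjusted p = 0.0944), with -1.52 to -1.10 on the mock arrays and -3.21 to -1.78 in TRIM58-WT. FUT4, an alpha-1,3-fucosyltransferase, changed by -0.79 (0.433) and FUT8, the core fucosyltransferase of N-glycans, by 0.18 (0.575). The brightest FUT6 probe stood at 8.15 to 8.78 on all 11 arrays and changed by 0.23 (0.545). A second FUT6 probe, designed to the same RefSeq transcript, was above background on only 1 array. FUT3, FUT5 and FUT6 are near-identical paralogues, so which transcript a probe of this trio reports is uncertain. In A549 mock the mean level was -4.13 for the second FUT6 probe, -4.49 for FUT3 and -4.97 for FUT5. None of these matched the bright FUT6 probe, so what that probe reports is not known. Its place among the members above background does not show that FUT6 was expressed.

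Of the members that passed in A549, B3GNT3, B4GALT4, GALNT16 and GALNT7 have 1 listed start each, and the promoters of the 3 with the largest changes are shown: B3GNT3, with the largest fall, B4GALT4, which also fell, and GALNT16, with the largest rise. Each is the 250 bases before the start from RefSeq (GRCh38.p14), 5' to 3' on the strand of the gene. Capitals mark the GC box, GGGCGG on either strand (CCGCCC on the other), the motif bound by Sp1-type factors.
B3GNT3, plus strand, chr19:17794888-17795137: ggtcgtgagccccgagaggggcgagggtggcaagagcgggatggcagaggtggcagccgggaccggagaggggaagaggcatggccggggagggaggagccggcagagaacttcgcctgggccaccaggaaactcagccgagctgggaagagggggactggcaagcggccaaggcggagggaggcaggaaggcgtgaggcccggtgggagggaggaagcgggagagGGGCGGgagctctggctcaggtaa
B4GALT4, minus strand, chr3:119240879-119241128: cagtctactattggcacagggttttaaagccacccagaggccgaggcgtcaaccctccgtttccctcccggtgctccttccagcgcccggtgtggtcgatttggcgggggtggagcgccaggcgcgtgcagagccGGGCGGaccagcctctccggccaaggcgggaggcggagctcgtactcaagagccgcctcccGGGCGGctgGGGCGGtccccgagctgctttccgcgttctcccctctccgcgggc
GALNT16, plus strand, chr14:69259908-69260157: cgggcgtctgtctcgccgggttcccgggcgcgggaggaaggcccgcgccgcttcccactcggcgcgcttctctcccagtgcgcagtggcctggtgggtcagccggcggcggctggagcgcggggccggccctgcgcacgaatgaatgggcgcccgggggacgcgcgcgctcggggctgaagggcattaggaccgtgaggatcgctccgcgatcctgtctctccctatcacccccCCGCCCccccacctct

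The GC box occurred 1 time before B3GNT3, 3 times before B4GALT4 and 1 time before GALNT16, and TATAAA, searched on both strands, occurred before none of the 3. Of all 35116 such windows listed, 42.6% held the GC box and 10.7% TATAAA. Among the 78 windows of the 50 members with a listed start, the shares were 62.8% and 2.56%. CG dinucleotides numbered 16, 26 and 34 in the windows of B3GNT3, B4GALT4 and GALNT16, against a median of 11 over all windows and 22 over the windows of members. Whether the motifs bear on the changes was not tested.

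In HCC827, 1 of 43 members tested passed, ST3GAL5, which fell. That is 2.33% of the members, beside 1.07% of all 12191 genes tested, of which 0.746% were lower and 0.328% higher. Without adjustment 18 of the 43 had a p under 0.05 by limma, beside 21.8% of all genes tested. The median change was 0.05 over the members and 0.01 over all genes tested, and the groups did not overlap for 27 of the 43, beside 59.1% of all genes. Each group held only 2 replicates. With arrays centred on their median, 6 members passed, 3 higher and 3 lower.

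ST3GAL5, whose product GM3 is the parent of most gangliosides, stood at -0.27 and -0.50 in HCC827 mock and at -2.37 and -2.10 in TRIM58-WT. The TRIM58-WT arrays lay below both mock arrays, and all 4 were above background. The log2 change was -1.85 (SE 0.17, n = 2 replicates per group), 3.61-fold lower, with an adjusted p of 0.0424 by limma. Without mock 1, mock 2 or TRIM58-WT 1 the change was -1.97 to -1.71, and the adjusted p was 0.104 to 0.207. With normexp background correction the change was -0.69 (adjusted p = 0.0815), and the 1 member that then passed was another one.

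The other large changes in HCC827 did not pass. ST6GALNAC1 stood at -0.23 and -0.54 in mock and at -2.86 and -1.39 in TRIM58-WT, a change of -1.74 (adjusted p = 0.189). GALNT10 stood at 2.85 and 2.57 in mock and at 1.48 and 1.62 in TRIM58-WT, a change of -1.16 (adjusted p = 0.0692). Both were lower in every TRIM58-WT array than in every mock array. In the other direction, ST3GAL1 was not above background in mock, at -3.45 and -4.69, and was above it in TRIM58-WT, at -2.24 and -2.29. It was at least 1.96-fold higher, with a fitted change of 1.81 (adjusted p = 0.140). ST6GALNAC5, which makes the ganglioside GD1alpha, changed by 1.41 (0.0685), from -1.20 and -1.08 to 0.06 and 0.48, and FUT4 by 1.25 (0.0707), from -1.08 and -1.38 to 0.12 and -0.08. B3GNT6, the core 3 synthase, was above background on 1 HCC827 array, mock 1, at -2.82, and on no other array of the study.

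Of the members that changed in A549, B3GNT3 was bright in HCC827 and did not fall there. It stood at 4.19 and 4.01 in mock and at 4.29 and 4.38 in TRIM58-WT, a change of 0.24 with a 95% interval of -0.14 to 0.61 (adjusted p = 0.403). B4GALT4 changed by 0.04 (95% interval -0.36 to 0.44), GALNT7 by 0.21 (-0.21 to 0.63) and ST3GAL4 by -0.05 (-0.46 to 0.37). ST6GAL2 was not above background on any HCC827 array. ST6GALNAC6 changed by -0.22 (-0.56 to 0.11), B3GNT2 was above background on 1 array of each group and was not tested, and GALNT16 was not above background.

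**Figure D3:**
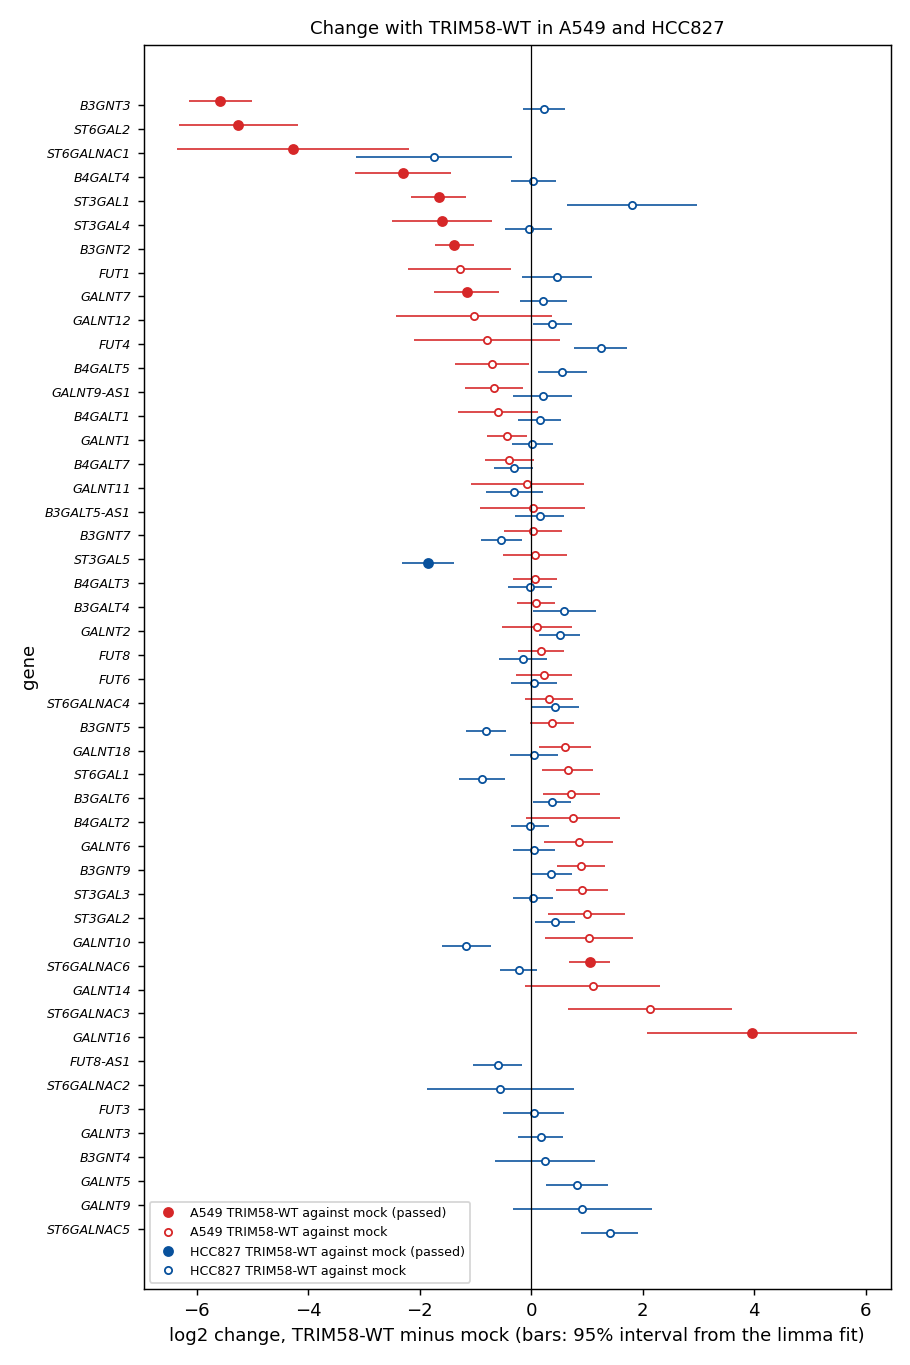
Log2 change of each tested member between TRIM58-WT and mock in A549 (red) and HCC827 (blue), with 95% intervals from the limma fit and filled points where the member passed; genes are ordered by their change in A549. B3GNT3 lies at -5.58 in A549 and 0.24 in HCC827, and ST3GAL5 at 0.06 and -1.85.

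Whether a change differed between the lines was tested directly as a contrast over all 4 groups, called at an adjusted p under 0.05 by limma. Of 48 members tested, 10 passed (20.8%), beside 4.61% of all 12838 genes tested, of which 2.49% had the lower and 2.12% the higher change in A549. In 5 the A549 change was the lower one (B3GNT3, ST6GAL2, ST3GAL1, B4GALT4 and B3GNT2), and in 5 it was the higher one (GALNT10, ST3GAL5, ST6GAL1, ST6GALNAC6 and B3GNT5). GALNT1 did not pass with its brightest probe (-0.46, adjusted p = 0.304) but did with its other probe (-1.02, 0.0404), which is not in the count. With arrays centred on their median, 5 members passed, all with the lower change in A549. B3GNT3 had the largest difference, -5.81 (95% interval -6.57 to -5.06, adjusted p = 0.000113). For 3 of the 10 the size of the difference rests on signal that was not above background. ST3GAL1 had a fitted difference of -3.46 (adjusted p = 0.00830), of which the fall of 1.66 in A549 was measured above background, while HCC827 mock was below it on both arrays. ST6GAL2 was above background in A549 mock alone. B3GNT2 was not above background in A549 TRIM58-WT, and on 1 of 2 arrays in each HCC827 group. With normexp background correction the differences were -3.54 for B3GNT3 (adjusted p = 0.000203), -1.33 for ST3GAL1 (0.0138), -1.72 for ST6GAL2 (0.0569), -0.10 for B3GNT2 (0.814) and 0.74 for ST3GAL5, the last 3 no longer passing, nor did B4GALT4 (-1.72, 0.0744). ST6GALNAC1, which was lower with TRIM58-WT on every array of both lines but not above background in A549 TRIM58-WT, had a fitted difference of -2.53 (adjusted p = 0.347). GALNT16, which rose in A549 and was not above background in HCC827, did not pass either (fitted difference 4.13, adjusted p = 0.0828). B3GNT3, ST6GAL2 and ST3GAL1 kept their call when any of the 10 replicates was left out, with fitted differences of -5.98 to -5.67, -5.69 to -4.87 and -4.08 to -2.84. The other 7 lost it in 6 to 8 of the 10 cases, and 3 to 18 members passed, 18 of them without A549 mock 3 and 3 without A549 mock 2, HCC827 mock 1 or HCC827 TRIM58-WT 1.

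The levels of many of these enzymes differed between the control cells of the lines. Between HCC827 mock and A549 mock, 25 of 45 members tested passed, 15 higher and 10 lower in HCC827, beside 31.9% of all 12394 genes tested (16.5% higher and 15.4% lower). Differences are on the log2 scale, HCC827 minus A549, unless given as folds. All 4 HCC827 arrays were on slide 1, so the slide-1 values use A549 mock 1-1 and mock 2 alone. No overlap between groups was seen for 33 of the 45 members, beside 72.2% of all genes. Some members that passed were above background in the mock cells of 1 line alone and entered the test through that line. They were GALNT3, GALNT14, FUT3, FUT8-AS1, B3GNT4, ST3GAL1, ST6GAL2 and ST6GALNAC5.

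Among the initiating enzymes, GALNT14 and GALNT3 were above background in opposite lines. GALNT14 stood at 2.90, 2.87, 2.98 and 4.19 on the A549 mock arrays and at -4.80 and -5.11 in HCC827 mock, where it was not above background. It was at least 96.0-fold lower in HCC827 (fitted difference -8.31, adjusted p = 0.000205), and -7.90 within slide 1. GALNT3, an initiator typical of glandular epithelium, stood at -5.25, -5.38, -4.34 and -4.62 in A549 mock, below background, and at 0.49 and 0.56 in HCC827 mock, at least 10.7-fold higher (fitted difference 5.28, adjusted p = 0.000292). GALNT6 was 2.77 higher (adjusted p = 0.000511) and GALNT5 3.25 higher (0.0222), while the GALNT1 difference was -2.16 (0.000621). GALNT7 was 1.00 higher (0.0191), and its call was lost without mock 1 or mock 3 of A549 or either HCC827 mock, with differences of 0.84 to 1.07. GALNT5, which stood at -1.26, -0.98, -0.84 and -3.28 in A549 mock and at 1.45 and 1.57 in HCC827 mock, lost its call without either HCC827 mock (3.19 and 3.31, adjusted p = 0.116 and 0.110).

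The fucosyltransferases that passed were all higher in HCC827. FUT3, the Lewis enzyme, was not above background on any A549 array and stood at -0.42 and -0.49 in HCC827 mock, at least 5.40-fold higher (fitted difference 4.03, adjusted p = 0.000160), subject to the uncertainty among its paralogues. FUT1 was 1.84 higher (0.00169) and FUT8 1.04 higher (0.0104), the latter losing its call without mock 3 of A549 or either HCC827 mock (0.91 to 1.08). FUT8-AS1, a non-coding RNA at the FUT8 locus, was at least 3.75-fold higher, with a fitted difference of 2.66 (0.000353).

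The galactose-adding and N-acetylglucosamine-adding enzymes split. B3GNT5 was 2.44 higher in HCC827 (adjusted p = 0.000409), B4GALT3 1.17 higher (0.00471), B3GNT7 1.02 higher (0.0199) and B3GNT4 at least 1.15-fold higher (0.0340). B4GALT4 (-2.55), B4GALT1 (-2.49), B3GNT9 (-2.08) and B4GALT5 (-1.41) were lower, with adjusted p of 0.00654, 0.000873, 0.00115 and 0.00400, as was GALNT9-AS1 (-1.01, 0.0219). With their dimmer probes B4GALT3 (0.84, 0.0169, short of 2-fold) and GALNT9-AS1 (-1.55, 0.0517) did not pass. The dimmer B3GNT7 probe was above background on only 1 array and was not tested. B3GNT3 did not pass, at a difference of 0.14 (95% interval -0.44 to 0.72, adjusted p = 0.659).

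Sialyltransferases differed in both directions. ST6GAL1 stood at -0.64, -0.67, -0.71 and -1.12 in A549 mock and at 3.03 and 2.84 in HCC827 mock, 13.6-fold higher (difference 3.77, adjusted p = 0.000245). ST6GAL2 was at least 11.8-fold lower in HCC827 (fitted difference -5.87, adjusted p = 0.00102), where it was at background. The alpha-2,6-sialyltransferase of lactosamine above background in HCC827 was thus ST6GAL1, and A549 mock had both. ST3GAL1 was at least 25.2-fold lower in HCC827 (fitted difference -5.49, adjusted p = 0.000550) and the ST3GAL4 difference was -1.96 (0.0212). ST6GALNAC5 was at least 3.37-fold higher (0.00711) and ST6GALNAC6 1.09 higher (0.00409).

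Leaving out replicates cost 11 of the 25 calls between the control cells in at least 1 case, and 14 members passed without HCC827 mock 1. Besides GALNT5, GALNT7 and FUT8, some calls were lost without either HCC827 mock: B3GNT7 (0.96 and 1.08), GALNT9-AS1 (-0.90 and -1.13), B3GNT4 (1.21 and 1.69), ST3GAL4 (-1.89 and -2.04) and ST6GALNAC5 (3.17 and 3.05). Those of B4GALT3, B4GALT4 and ST6GALNAC6 were lost without HCC827 mock 1, with differences of 1.14, -2.45 and 1.07 respectively. Without A549 mock 1 the calls of GALNT9-AS1 (-0.98), B3GNT4 (1.15), ST3GAL4 (-1.83) and B3GNT7 (0.89) were lost too, and without A549 mock 2 those of GALNT9-AS1 (-0.87) and B3GNT7 (0.98). With normexp background correction the calls of FUT1 (0.95), ST6GALNAC6 (0.86), B3GNT9 (-0.81), GALNT9-AS1 (-0.69), ST6GALNAC5 (0.58), B3GNT7 (0.46), FUT8-AS1 (0.24) and B3GNT4 (0.03) were lost. Those of GALNT14 (-4.11), ST3GAL1 (-2.19), ST6GAL2 (-2.09), GALNT5 (1.84), GALNT6 (1.71), GALNT3 (1.63) and FUT3 (1.03) were kept at smaller differences.

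**Figure D4:**
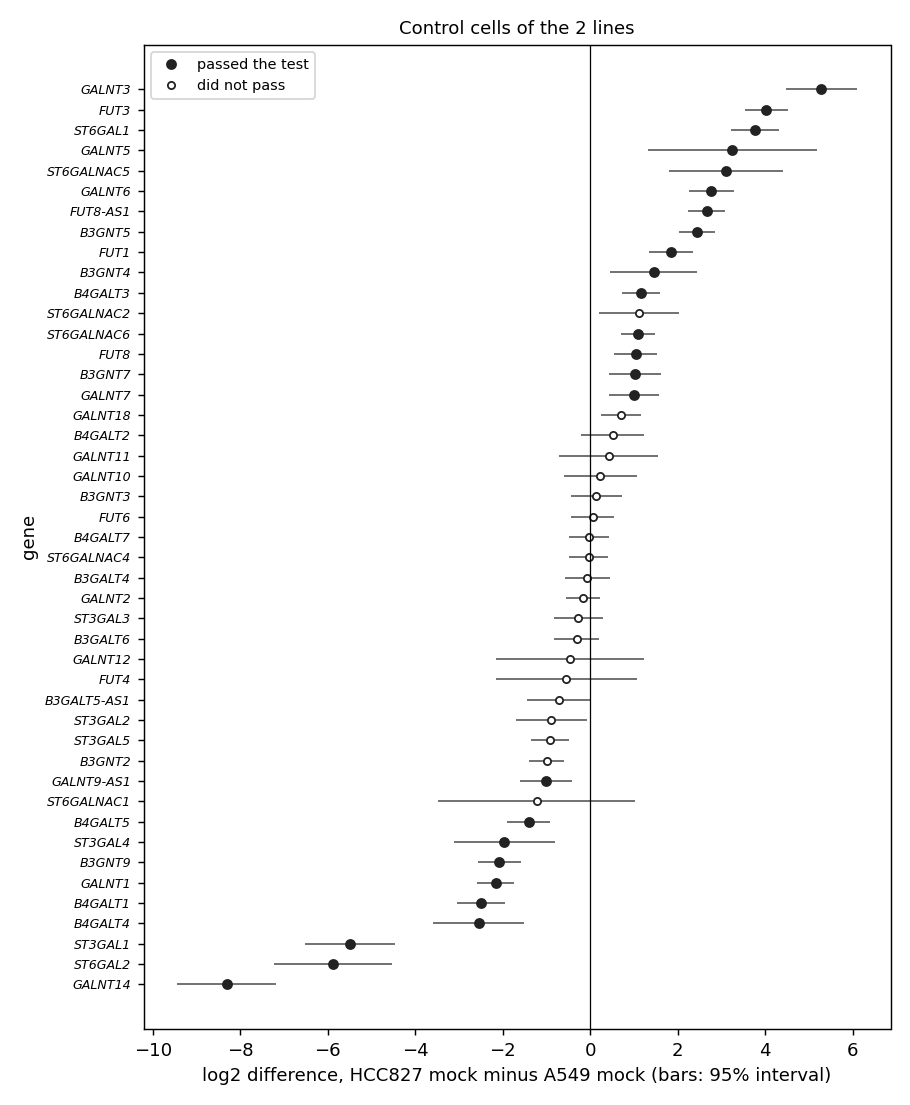
Log2 difference between HCC827 mock and A549 mock for the 45 members tested, with 95% intervals; filled points passed the test at an adjusted p under 0.05 and 2-fold. GALNT14 lies lowest at -8.31 and GALNT3 highest at 5.28, while B3GNT3 lies at 0.14.

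Genes that work beside these enzymes were read from 6 lists set by name. Of 9 genes of core O-glycan synthesis and branching (C1GALT1, its chaperone C1GALT1C1, the GCNT branching enzymes and others), 4 were tested in A549 and 6 in HCC827, and none passed with TRIM58-WT. The same held for the 14 and 15 tested genes of sugar-nucleotide donors and carriers, the 5 and 5 of sialic acid supply and removal, the 3 and 4 of N-glycan branching and the 8 and 9 of Golgi structure. Of 6 polysialyl and ganglioside sialyltransferase genes, none was tested in A549 and 1 in HCC827, which did not pass. The median change of these lists in A549 was -0.26, -0.09, -0.68, -0.04 and -0.00, in the order core, donors, sialic acid, N-glycan and Golgi structure, against 0.03 over all genes tested. In the test of the difference between lines MGAT4A, an N-glycan branching enzyme, passed (adjusted p = 0.0418), but it was not above background on any A549 array, so no size or direction is given.

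Between the control cells, 12 genes of the lists passed, about the same share as the 31.9% of all 12394 genes tested. Of the lists, 6 core, 15 donor, 5 sialic acid, 3 N-glycan, 8 Golgi structure and 1 polysialyl genes were tested. GNE, the enzyme that starts sialic acid synthesis, was above background in A549 mock and not in HCC827 mock, at least 152-fold lower (fitted difference -9.02, adjusted p = 4.33e-05). The core 2 and core 4 branching enzyme GCNT3 differed by -4.22 (0.00418) and was above background on 1 of the HCC827 mock arrays. GCNT1, the core 2 enzyme, was 1.38 higher (0.00532), B3GALNT1, the globoside synthase, at least 2.97-fold higher (0.00327), B4GALNT4 2.48 higher (0.00575) and the polysialyltransferase ST8SIA4 at least 3.54-fold higher (0.000909). The Golgi carriers SLC35C1, for GDP-fucose, and SLC35A3, for UDP-N-acetylglucosamine, differed by -2.27 (0.000981) and 2.09 (0.00837). B4GALNT4 and SLC35A3 were each above background on only 2 of the A549 mock arrays, so the sizes of their differences rest in part on signal not above it. GFPT1 and UAP1, which make UDP-N-acetylglucosamine, were 1.17 (0.00408) and 1.51 (0.00382) higher, GORASP2, a Golgi stacking protein, 1.03 higher (0.00545), and MGAT1, which starts complex N-glycans, differed by -1.01 (0.00634).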

How the data were processed

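RNA of each sample was labelled with Cy3 and hybridised to 1-colour Agilent arrays. Per the file headers, the deposited intensity of each spot was background-subtracted and detrended by Agilent Feature Extraction 11.5.1.1, with no scaling between arrays (the labels name version 10.7). A log2 table deposited by the authors, whose normalization is not given in the sources used here, served as an alternative. Outlier and control spots were left out, spots of a probe averaged, and log2 intensity minus the 75th percentile of the array taken. Of 42405 probes, 28302 carried a RefSeq accession and 27241 were named through RefSeq (GRCh38.p14). Groups were compared by limma 3.58.1 (lmFit, eBayes) in R 4.3.3, with p-values adjusted by the Benjamini-Hochberg method over all probes tested, after tests on simulated data. A call needed an adjusted p under 0.05 and a 2-fold change, or the adjusted p alone for the difference between lines. Where a probe was not above background on any array of a group, "at least" folds took as each such array's value the higher of the probe's signal and the lowest signal marked above background. The number of arrays limits the precision. Members passing a comparison, the brightest members of each family and those with the largest changes were named. The members and lists were chosen with earlier results of these data known. Alternatives covered scaling, background correction, filters, outlier spots, the table, slide, replicate block, array averaging and left-out replicates. The result of a further gene of the pathway lists is not reported here.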

Additional observations from a re-analysis of the deposited data

Results flagged for a closer look

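The TRIM58-WT change differed between A549 and HCC827 for 10 members by limma's test of the difference itself (A549 change minus HCC827 change, log2 scale). It was lower in A549 for B3GNT3 (-5.81, adjusted p = 0.000113), ST6GAL2 (-5.16, 0.00462), ST3GAL1 (-3.46, 0.00830), B4GALT4 (-2.33, 0.0431) and B3GNT2 (-1.53, 0.0314). The sizes for ST6GAL2, ST3GAL1 and B3GNT2 are fitted values that rest in part on signal not above background: ST6GAL2 was above it in A549 mock alone, ST3GAL1 not in HCC827 mock, and B3GNT2 not in A549 TRIM58-WT and on 1 of 2 arrays in each HCC827 group. With normexp background correction the difference of B3GNT2 was -0.10 (0.814). It was higher in A549 for GALNT10 (2.20, 0.0397), ST3GAL5 (1.91, 0.0230), ST6GAL1 (1.54, 0.0215), ST6GALNAC6 (1.28, 0.0163) and B3GNT5 (1.18, 0.0275). Of these 5, ST3GAL5 passed in HCC827 and ST6GALNAC6 in A549, while GALNT10, ST6GAL1 and B3GNT5 passed in neither line alone.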

How the results depend on the processing

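In A549, where 10 members passed, 5 passed with normexp background correction, 5 with no filter on dim probes, 5 with probes above background on every array, 2 by the methods' t-test, 4 with TRIM58-WT 2 and 3 averaged, and 3 to 17 when 1 replicate was left out. In HCC827, where 1 passed, 6 passed with the array median, 0 with no filter, 4 with probes above background on every array, 0 by the methods' t-test, and 0 to 2 with 1 replicate left out; the slide could not be fitted, since all its arrays were on 1 slide. Between control cells, 25 became 16 with probes above background on every array and 14 to 27 with 1 replicate left out. For the difference between lines, 10 became 5 with the array median, 4 with no filter, 5 with TRIM58-WT 2 and 3 averaged, and 3 to 18 with 1 replicate left out. B3GNT3 passed under all 21 alternatives in A549 and all 22 for the difference, and no call of any member reversed direction. ST3GAL4 lost its call in A549 in 16 of 21. With the number as a replicate block, 8 members passed in A549 and 0 in HCC827. Same-numbered samples of A549 did not deviate together throughout (correlations 0.50, -0.42 and 0.50). Unlike numbers were as closely related, at 0.57 for TRIM58-WT 2 with mock 3 and -0.59 for TRIM58-WT 1 with mock 3. In HCC827, with 2 replicates per group, the correlations can differ only in sign (0.08 and -0.08), so they cannot inform on pairing. Numbers were taken as names only. The causes of these changes were not tested.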
